A study of Homo sapiens with 15 samples.

Results

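The genes described here are 55 genes of mitosis and of the G2/M transition, taken by symbol from the 28207 genes of the deposited count table. All 55 were found, and all 55 were among the 18760 genes that had enough counts to be tested. They hold cyclins, CDK1 and phosphatases that act on cyclin-dependent kinases, mitotic kinases, partners of the anaphase promoting complex, and securin. Kinetochore proteins, spindle motors and proteins that pinch the daughter cells apart are also among them. RNA was sequenced from NTERA2, an established human embryonal carcinoma line that expresses pluripotency genes, after 2 siRNA treatments within 7 days. There were 5 groups with 3 libraries in each: siControl, transfected with control siRNA, and 4 knockdowns. The targets were IGF2BP1, an mRNA-binding oncofetal protein (siIGF2BP1), SRF, a transcription factor of cytoskeletal genes (siSRF), FOXM1, a transcription factor of G2/M genes (siFOXM1), and IQGAP3, a scaffold protein (siIQGAP3). No other agent or genotype is given, so by the labels the groups share the line and the transfection and differ in the siRNA. A batch is not given either, although library 3 of several groups stood apart, as described below. Whether libraries of the same group are separate cultures is not stated, and p-values therefore reflect a spread that may be technical. In every group but siIQGAP3 that spread also holds the gap between library 3 and the other 2 libraries.

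Mitotic genes are read out late in the cell cycle. The MuvB complex holds many of them silent in resting cells, and in cycling cells it joins MYBL2 and then FOXM1 to switch them on as the cell passes through G2. Their promoters often carry a cell cycle genes homology region (CHR, TTTGAA) and CCAAT boxes, which bind MuvB and NF-Y. In bulk RNA, fewer cells in G2 and mitosis and less of these mRNAs per cell cannot be told apart.

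The 3 members whose level differed from siControl by the test were KIF14 in siFOXM1, and CDKN3 and CENPF in siIQGAP3. KIF14 is a kinesin that works with citron kinase in cytokinesis, CDKN3 is a phosphatase that acts on cyclin-dependent kinases, and CENPF is a large kinetochore protein. Their promoters are shown because these 3 genes passed the test, though each call was lost under some of the alternatives given below. Each window runs from 250 bases before to 50 after the RefSeq transcript start, on the strand of the gene (RefSeq, GRCh38.p14), with capitals for CHR elements (TTTGAA, or TTCAAA on the other strand) and CCAAT boxes (CCAAT or ATTGG). KIF14 lies at chr1:200620702-200621001 on the minus strand, CENPF at chr1:214602945-214603244 on the plus strand, and CDKN3 at chr14:54396757-54397056 on the plus strand.
KIF14: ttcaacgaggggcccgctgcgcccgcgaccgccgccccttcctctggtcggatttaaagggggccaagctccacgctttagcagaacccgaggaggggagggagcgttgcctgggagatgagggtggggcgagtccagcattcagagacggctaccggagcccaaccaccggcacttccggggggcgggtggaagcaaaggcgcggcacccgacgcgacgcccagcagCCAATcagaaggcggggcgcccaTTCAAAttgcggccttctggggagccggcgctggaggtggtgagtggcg
CENPF: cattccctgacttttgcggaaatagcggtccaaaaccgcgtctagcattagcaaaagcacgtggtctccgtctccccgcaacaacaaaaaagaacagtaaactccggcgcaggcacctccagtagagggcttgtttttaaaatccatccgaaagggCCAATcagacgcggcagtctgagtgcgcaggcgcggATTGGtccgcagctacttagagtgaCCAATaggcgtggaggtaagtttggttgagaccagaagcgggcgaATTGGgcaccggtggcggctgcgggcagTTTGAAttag
CDKN3: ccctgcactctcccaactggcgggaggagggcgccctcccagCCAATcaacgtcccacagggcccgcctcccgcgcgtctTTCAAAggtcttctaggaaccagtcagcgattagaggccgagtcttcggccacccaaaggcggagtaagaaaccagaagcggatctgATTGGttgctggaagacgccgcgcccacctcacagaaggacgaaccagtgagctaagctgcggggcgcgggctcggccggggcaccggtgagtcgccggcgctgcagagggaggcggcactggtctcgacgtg
In KIF14 the CHR element began at base 2 and the CCAAT box at base -22, counted from the first transcribed base as 1. CENPF held 4 CCAAT boxes, starting at -94, -58, -33 and 13, and a CHR element inside the transcript at 41. CDKN3 held its CHR element at -170, upstream of the window around the start in which most members carried theirs. Windows were found for 47 of the 55 members, and those for AURKA, PBK, UBE2C, TTK, BIRC5, TPX2, FAM83D and CDCA2 are not used here.

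The shared letters went well beyond these 3 genes. TTTGAA on either strand stood in 36 of 47 members (76.6%, Wilson 95% interval 62.8 to 86.4), or 39 of their 57 windows (68.4%), against 15.2% of all 35116 windows. CCAAT on either strand stood in 40 of 47 members (85.1%) or 45 of 57 windows (78.9%), against 34.6% of all windows. Within the 150 bases around the start the counts were 33 of 47 for TTTGAA (70.2%; 59.6% of windows, against 6.84% of all) and 36 of 47 for CCAAT (76.6%; 64.9% of windows, against 21.3% of all). The letters TAAACA, a forkhead core, stood in 4 members (7.02% of windows, against 12.3% of all), and TTCGAA, a variant of the CHR element, in 4 (7.02% of windows, against 1.45% of all). None of the 4 motifs holds another within it. A match is a description of letters and not a binding site. Members with TTTGAA had a median log2 fold change in siFOXM1 against siControl of -0.39 (n = 36) and those without it -0.35 (n = 11). For CCAAT the medians were -0.38 with it (n = 40) and -0.52 without it (n = 7), and for both motifs the ranges overlapped.

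The siRNA targets came first, although the count and normalised tables disagree for those 4 genes. Their values here are from the counts. FOXM1 was at 773, 876 and 920 CPM (counts scaled to an equal library size) in siControl and at 153, 177 and 198 in siFOXM1, with a log2 fold change of -2.28 ± 0.28 (SE; edgeR quasi-likelihood test, Benjamini-Hochberg adjusted p = 0.00199). FOXM1 was also lower in siIGF2BP1, at 202 to 291 CPM (adjusted p = 0.00773), and in siSRF, at 132 to 319 CPM (adjusted p = 0.00569), but at 783 to 797 CPM in siIQGAP3. SRF was at 82.8 to 92.2 CPM in siControl and at 5.95 to 7.04 in siSRF, with 5.30 to 7.92 in siIGF2BP1, and IGF2BP1 at 786 to 1039 CPM in siControl and 166 to 213 in siIGF2BP1. IQGAP3 was at 82.5 to 127 CPM in siControl, at 48.9 to 52.1 in siIQGAP3 and at 4.42 to 8.75 in siFOXM1. It was also lower than in siControl in siIGF2BP1, at 13.6 to 21.4 CPM (edgeR adjusted p = 0.00137), and in siSRF, at 13.9 to 24.5 CPM (adjusted p = 0.00179). By the counts, of the 4 knockdowns siIQGAP3 thus had the highest IQGAP3 level. The tables did agree for all 55 members, which differed between them by a constant scaling of each library (tolerance 1e-06).

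Library 3 of several groups stood apart from the other 2, and the mitotic genes differed there as well. The libraries held 35275570 to 44996064 counts, and they are numbered only to name them. The chi-square per gene was 2.28 to 16.9 between libraries 1 and 2 of a group, against 124 to 558 between either and library 3, except in siIQGAP3, where all 3 pairs lay at 1.82 to 4.40. On the first principal component, with 62.8% of the variance, siControl library 3 scored 131, beside siIQGAP3 at 157, and the other siControl libraries -51.4 and -75.8. All 11 pluripotency markers were above 1 CPM in all 15 libraries, but their summed level ran from 218 to 3677 CPM. Markers of fibroblasts (6 of 7 above 1 CPM in all libraries) summed to 1952 CPM in siControl library 3 and to 7559 and 8838 in the other siControl libraries. They summed to 2705 to 2735 CPM in siIQGAP3, 4524 to 9333 in siSRF, 5238 to 10924 in siIGF2BP1 and 7026 to 8763 in siFOXM1. COL3A1, the fibrillar collagen that leads that list with COL1A1, was at 3.52 CPM in siControl library 3 at 2446 and 2728 CPM in the other siControl libraries, and at 118 to 123 CPM in siIQGAP3. Of the other marker lists, summed CPM ran from 27.6 to 778 for mesoderm (2 of 8 above 1 CPM in all libraries), 3.86 to 97.3 for endoderm (1 of 7), 266 to 1457 for trophoblast (5 of 8), 118 to 411 for neural (3 of 9) and 0.0577 to 5.53 for blood (0 of 6). The part of these differences in the mitotic values was not tested.

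The summed level of the 55 genes shows the spread that every comparison has to pass. It was 6427, 6431 and 7718 CPM in siControl and 7188, 7274 and 7332 in siIQGAP3. In siFOXM1 it was 5309, 5255 and 4371 CPM, so that all 3 libraries lay below every siControl library. siIGF2BP1 gave 6644, 6418 and 4219 CPM, and siSRF gave 7053, 7114 and 2818. In these last 2 groups libraries 1 and 2 lay between 6418 and 7114 CPM, near or within the control range, and library 3 lay far below it. The sum of 34 DNA replication and G1/S genes was 3795 to 5618 CPM in siControl, 5247 to 5298 in siIQGAP3 and 2192 in siSRF library 3. For these genes siFOXM1 gave 3825, 3870 and 2986 CPM, so that libraries 1 and 2 lay inside the control range. In siFOXM1 the sums also lay below every control for cohesin and condensin genes (2480 to 2582 CPM against 3143 to 3420). Spindle pole genes gave 1601 to 1794 CPM against 2141 to 2390, and other kinetochore genes 930 to 1041 against 1061 to 1487. The MuvB, MYB, FOXM1 and E2F regulators gave 1424 to 1430 CPM against 2024 to 2833, but this list holds the siRNA target. FOXM1 alone went from a mean of 856 CPM in siControl to 176 in siFOXM1, so this sum does not describe the other regulators. Sums of anaphase promoting complex and G2/M checkpoint genes overlapped with the controls.

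**Figure D1:**
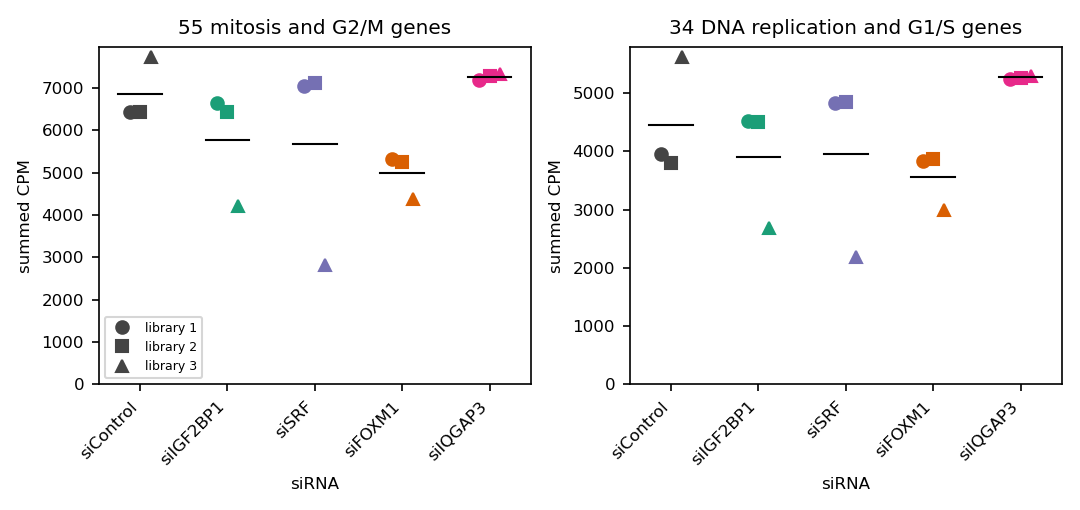
Summed CPM of the 55 mitosis and G2/M genes (left) and of 34 DNA replication and G1/S genes (right) in each of 15 libraries, with a line at the mean of 3; circles, squares and triangles are libraries 1, 2 and 3. siSRF library 3 is the lowest at 2818 CPM, siIQGAP3 lies between 7188 and 7332, and siFOXM1 lies below every siControl library in the left panel.

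Within groups, library 3 was lower for the whole set in siSRF and siIGF2BP1, and mixed in the other groups. In siSRF all 55 members were lower in library 3 than in libraries 1 and 2, where 46.4% of all genes were, and the ratio of library 3 to the mean of the other 2 had a median of 0.415 (range 0.215 to 0.626). AURKB, the catalytic kinase of the chromosomal passenger complex, had the lowest ratio, and HMMR, a spindle assembly factor, the highest. In siIGF2BP1 all 55 were also lower in library 3 (46.1% of all genes), with a median ratio of 0.664 (0.404 to 0.866). In siFOXM1 37 members were lower there (48.8% of all genes) and 16 higher (42.6%), with a median of 0.836. In siControl 15 were lower (44.5%) and 36 higher (49.1%), with a median of 1.195 and a range from 0.426 for CKS2, a CDK-binding adaptor, to 2.44 for DEPDC1. The siIQGAP3 ratios stayed within 0.958 to 1.11. Over all genes the median ratio lay between 0.970 and 1.01 in the 5 groups. The lowest of the 15 values was in siSRF library 3 for 51 of the 55 members, and the highest was in siControl library 3 for 20. Counts of calls are therefore also given without library 3 of each group. Fold changes without it are given for most core genes in siFOXM1 and for a few genes in other comparisons.

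**Figure D2:**
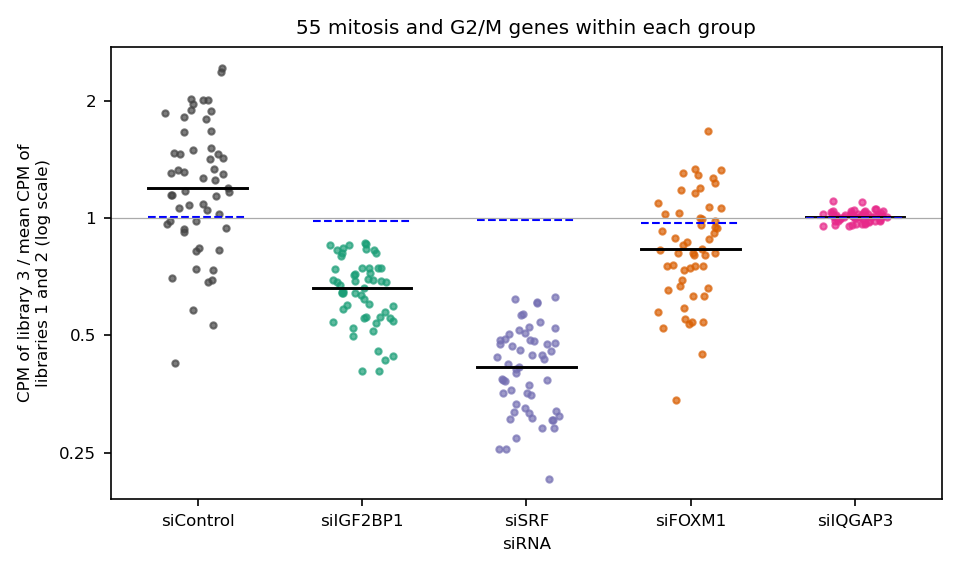
Ratio of CPM in library 3 to the mean CPM of libraries 1 and 2 for each of the 55 genes in each group, on a log scale; the solid line is the median of the 55 and the dashed line the median of all genes with a mean of at least 1 CPM. All 55 points lie below 1 in siSRF and siIGF2BP1, with medians of 0.415 and 0.664.

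FOXM1 knockdown gave lower values across nearly all roles, but the test passed for 1 gene. Of the 55 members 54 had a negative log2 fold change, with a median of -0.37 against -0.02 over all genes tested. Without library 3 of each group 44 were negative, with a median of -0.25. Without siControl library 3, and with every other library kept, 49 were negative, with a median of -0.33. KIF14 passed the threshold of an adjusted p of 0.05, 1 member lower where 0.832% of all genes were, and 0 members were higher, where 0.288% of all genes were. At an unadjusted p under 0.05 there were 9 members, where 12.5% of all genes were, a share near that background. In 31 of the 55 every siFOXM1 library lay below every siControl library, where 8.15% of all genes did, and in 0 every library lay above (7.55%). With library totals in place of TMM scaling 28 lay below (6.16% of all genes). Comparisons with siControl share the same 3 control libraries and are not independent of each other.

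KIF14 was at 66.7, 54.7 and 79.2 CPM in siControl and at 37.5, 33.5 and 35.3 CPM in siFOXM1. The groups did not overlap, and the highest siFOXM1 value was well under the lowest control. The log2 fold change was -0.92 ± 0.20 (SE; edgeR adjusted p = 0.0457), or 53.0% of the control level. Its call was at the edge of the threshold: the adjusted p ran from 1.99e-06 to 0.273 over the alternatives, and was 0.126 without siControl library 1, 0.0834 to 0.187 without any 1 siFOXM1 library and 0.0542 by limma-voom. In the knockdowns that also lowered FOXM1, KIF14 was at 44.7 to 58.3 CPM in siIGF2BP1, above every siFOXM1 library, and at 36.0 to 60.4 in siSRF, which overlapped with siFOXM1. The differences did not pass the test, at -0.51 ± 0.19 (edgeR adjusted p = 0.968) and -0.54 ± 0.19 (adjusted p = 1).

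MKI67 and ASPM came next by p-value. MKI67 encodes the proliferation marker Ki-67, which coats mitotic chromosomes, and was at 283, 284 and 417 CPM in siControl and at 161, 156 and 149 CPM in siFOXM1. Its log2 fold change was the most negative of the members, -1.08 ± 0.28 (edgeR adjusted p = 0.0969, 47.4% of the control level). ASPM, a spindle pole protein, was at 135, 112 and 127 CPM against 71.2, 65.0 and 80.6 CPM, which gave a log2 fold change of -0.79 ± 0.20 (edgeR adjusted p = 0.0951). Neither group pair overlapped, and DESeq2 called both, with KIF14, at adjusted p values of 0.00806 and 0.00996.

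**Figure D3:**
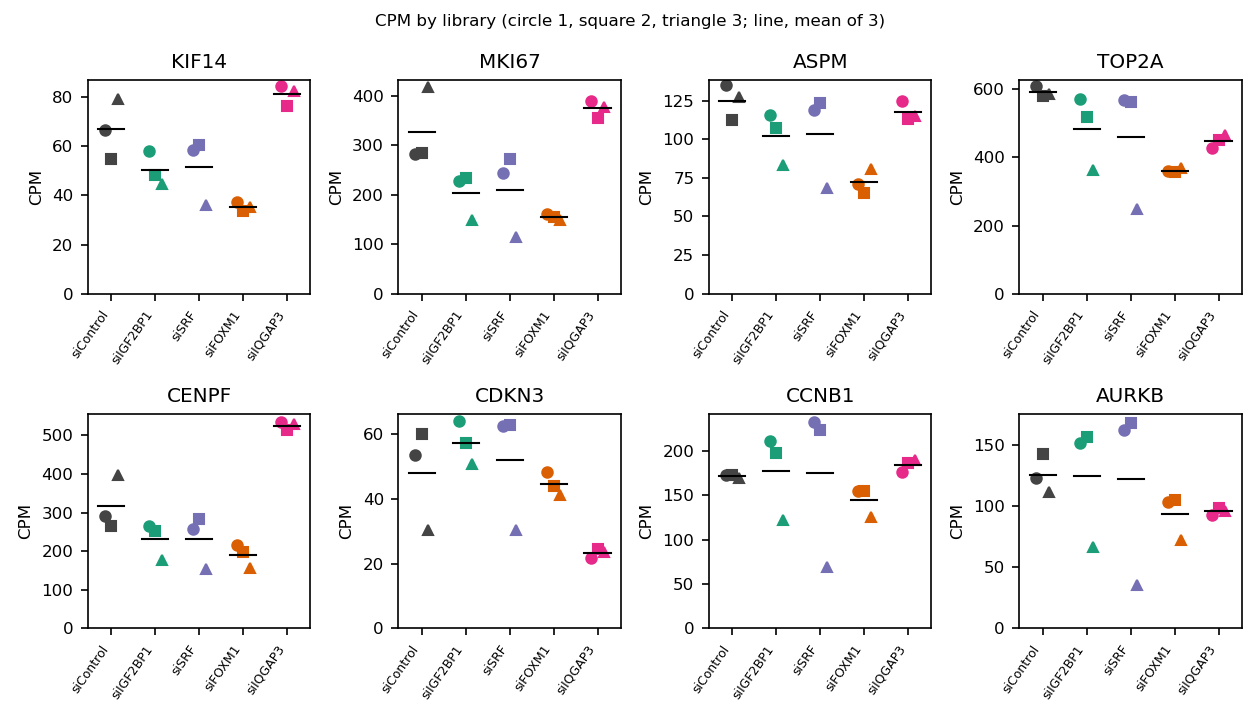
CPM of 8 members in each of 15 libraries, with circles, squares and triangles for libraries 1, 2 and 3 and a line at the mean of 3. KIF14, MKI67, ASPM and TOP2A lie lower in all siFOXM1 libraries than in any siControl library; CENPF is highest and CDKN3 lowest in siIQGAP3.

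The role of cyclins, CDK1 and phosphatases had the least negative median of the 10 roles. Of 9 cyclin, CDK1 and phosphatase genes, 8 had negative values with a median log2 fold change of -0.26, and 4 lay below all controls. CCNB1, the cyclin that drives mitotic entry, was at 170.2, 173 and 174 CPM in siControl and at 126, 155 and 156 CPM in siFOXM1, a log2 fold change of -0.24 ± 0.34 (adjusted p = 0.876). Its kinase partner CDK1 was at 92.7, 93.6 and 107 CPM against 69.2, 70.1 and 88.5, with a log2 fold change of -0.36 ± 0.22 (adjusted p = 0.574). Both genes lay lower in every siFOXM1 library than in any control, and neither passed the test. CCNB2, another B cyclin, overlapped between groups, at 92.9 to 136 CPM in siControl and 60.0 to 106 in siFOXM1, with a log2 fold change of -0.26 ± 0.34 (adjusted p = 0.859). CDC25B, a phosphatase that activates CDK1, was at 119 to 214 CPM in siControl and 145 to 191 in siFOXM1, and the log2 fold change of -0.00 ± 0.27 had no direction. CDC25C, of the same family, was the 1 member with a positive value.

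Among the mitotic kinases all 6 had negative values, with a median log2 fold change of -0.40, and 3 did not overlap with the controls. PLK1, which acts from centrosome maturation to cytokinesis, was at 267, 283 and 315 CPM in siControl and at 257, 252 and 160 CPM in siFOXM1 (log2 fold change -0.37 ± 0.38, adjusted p = 0.806). AURKA, the centrosomal Aurora kinase, was at 74.3, 71.5 and 138 CPM against 69.7, 69.5 and 56.7 CPM (-0.54 ± 0.38, adjusted p = 0.66), and without library 3 of each group the difference was -0.09. AURKB was at 123, 143 and 112 CPM against 103, 105 and 72.1 CPM (-0.43 ± 0.45, adjusted p = 0.814). These 3 groups lay apart from their controls, PLK1 and AURKA narrowly.

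The anaphase promoting complex set held CDC20, its activator, UBE2C, its ubiquitin-conjugating enzyme, and PTTG1, the securin that restrains separase. All 3 had negative values, and CDC20 and PTTG1 lay below all controls. CDC20 was at 309, 333 and 384 CPM in siControl and at 290, 293 and 157 CPM in siFOXM1 (log2 fold change -0.47 ± 0.36, adjusted p = 0.696). The 4 spindle checkpoint genes BUB1, BUB1B, MAD2L1 and TTK, which hold back anaphase until chromosomes are attached, had a median log2 fold change of -0.41, and all but MAD2L1 lay below the controls. BUB1, the most negative of them, was at 116, 105 and 208 CPM against 83.5, 84.8 and 80.2 CPM.

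At the kinetochore all 5 genes had negative values. CENPF was at 291, 264 and 398 CPM in siControl and at 215, 199 and 156 CPM in siFOXM1, a log2 fold change of -0.74 ± 0.24 (adjusted p = 0.194) and -0.44 without library 3 of each group. CENPE, the kinetochore motor, was at 38.2 and 34.5 CPM in siFOXM1 libraries 1 and 2 and at 60.9 CPM in library 3, inside the control range of 53.5 to 71.7. The chromosomal passenger complex genes BIRC5, CDCA8 and INCENP all lay below the controls. BIRC5, which encodes survivin, was at 127, 137 and 151 CPM against 111, 114 and 111 CPM (-0.31 ± 0.42, adjusted p = 0.87).

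All 9 kinesins had negative values, with a median log2 fold change of -0.42 and a range of -0.92 to -0.35, and 4 of them (KIF11, KIF14, KIF18A and KIF4A) lay below the controls. Of the 8 spindle and microtubule proteins all 8 were negative, with a median of -0.39, and 6 did not overlap. In cytokinesis ANLN, the actin-binding scaffold of the contractile ring, lay below the controls at 163, 154 and 119.5 CPM against 198, 178 and 381, while the groups overlapped for ECT2, which activates RhoA, and PRC1, which bundles the central spindle. TOP2A, the topoisomerase that untangles sister chromatids, was at 609, 580 and 585 CPM in siControl and at 359, 357 and 368 CPM in siFOXM1. The groups did not overlap, with a log2 fold change of -0.71 ± 0.26 (adjusted p = 0.255). CDCA3, a trigger of mitotic entry, went apart from the rest in libraries 1 and 2, at 86.4 and 89.0 CPM against 56.4 and 57.4 in siControl libraries 1 and 2, and was at 29.9 CPM in library 3.

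**Figure D4:**
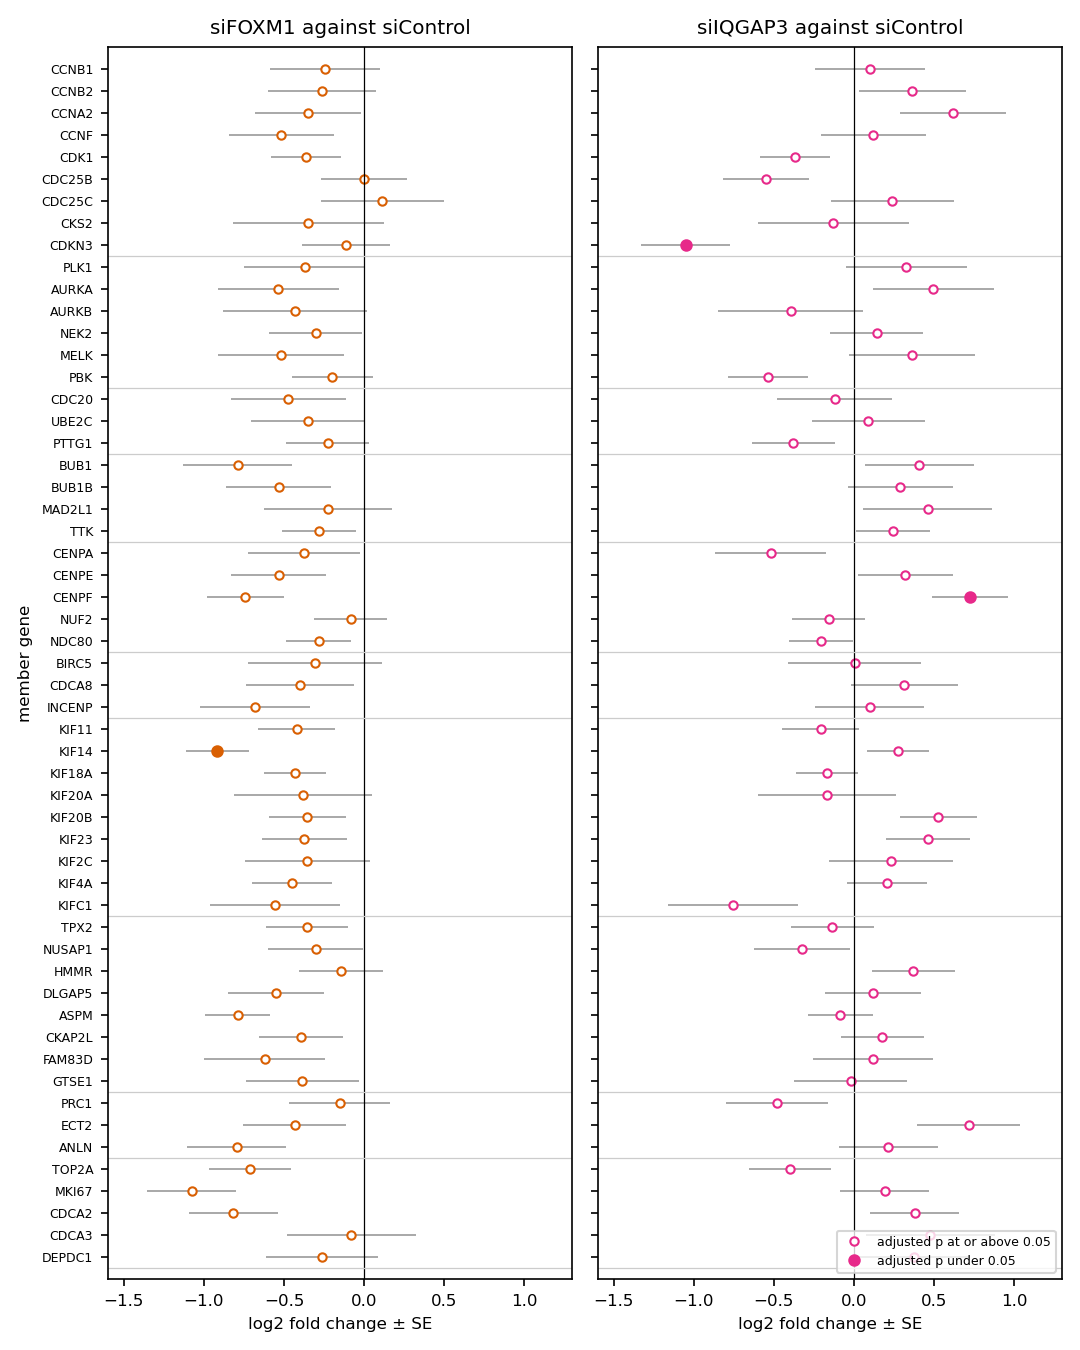
Log2 fold change ± SE of each of the 55 genes in siFOXM1 (left) and siIQGAP3 (right) against siControl, grouped by role, with filled points for an adjusted p under 0.05. In siFOXM1 54 of 55 points lie below 0 and KIF14 is filled; in siIQGAP3 21 lie below 0 and CDKN3 and CENPF are filled.

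The siFOXM1 count was far larger in the fit without library 3 of each group. There 36 members were called lower, where 27.4% of all genes were, and 2 higher (CDCA3 and KIF2C), where 25.5% of all genes were. The spread there is that between libraries 1 and 2 of each group, which were nearly alike. In that fit the log2 fold changes were -0.79 for KIF14, -0.86 for MKI67, -0.88 for ASPM, -0.75 for TOP2A, -0.44 for CDK1 and -0.37 for AURKB. They were nearer 0 for BIRC5 at -0.25, CCNB1 at -0.18, CDC20 at -0.16 and PLK1 at -0.13, and CCNB2 turned to 0.15. With siControl library 3 as the only control, where the spread comes from the other groups and the lone library is assumed to vary like them, 10 members were lower (11.6% of all genes).

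Calls in siFOXM1 were also few among other cell cycle genes, where 0.832% of all genes were called lower and 0.288% higher. In siFOXM1 the 165 genes of 7 further lists (MuvB, MYB and E2F regulators; the anaphase promoting complex; the G2/M checkpoint; other kinetochore genes; cohesin and condensin; spindle pole genes; DNA replication and G1/S) gave 1 call by edgeR, FOXM1 itself. Negative values were found in 32 of 34 replication genes (median log2 fold change -0.33), 22 of 24 spindle pole genes (-0.43), 18 of 20 cohesin and condensin genes (-0.29) and 25 of 30 other kinetochore genes (-0.20). They were less one-sided for the anaphase promoting complex, with 12 of 20 (-0.03), the regulators, with 12 of 20 (-0.20), and the checkpoint, with 11 of 17 (-0.33).

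IQGAP3 knockdown split the members in both directions. CDKN3 was lower and CENPF higher by the test, 1 member each, where 21.7% of all genes were lower and 10.8% higher. Of the 55 members 21 had a negative log2 fold change, and the median was 0.12 against -0.06 over all genes. This direction depended on the control libraries used. Against siControl library 3 alone the median was -0.11 with 39 negative, and without library 3 of each group it was 0.22 with 20 negative. In 13 members every siIQGAP3 library lay below every siControl library (23.1% of all genes) and in 11 above (25.2%), shares near the background of each direction. With library totals in place of TMM scaling the counts were 15 (24.7% of all genes) and 8 (23%), the latter under its background.

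CDKN3 was at 53.7, 60.2 and 30.3 CPM in siControl and at 21.6, 24.4 and 23.7 CPM in siIQGAP3. The groups did not overlap, though siControl library 3 lay near the knockdown. The log2 fold change was -1.05 ± 0.28 (edgeR adjusted p = 0.0131). Against siControl library 3 alone it was -0.38 (adjusted p = 0.529), and leaving out siControl library 2 or siIQGAP3 library 1 also ended the call (adjusted p = 0.0601 and 0.0517). It was -1.35 without library 3 of each group. CENPF was at 291, 264 and 398 CPM in siControl and at 535, 513 and 529 CPM in siIQGAP3, a log2 fold change of 0.73 ± 0.24 (adjusted p = 0.0354). Here too siControl library 3 was nearest, with 0.41 against it alone (adjusted p = 0.509), and the call was lost without siControl library 1 (adjusted p = 0.119), without siControl library 2 (0.131) and without any 1 siIQGAP3 library (0.0763 to 0.0865). It was 0.88 without library 3 of each group.

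Among the core genes, siIQGAP3 libraries lay above all controls for CCNB1 at 177 to 190 CPM and PLK1 at 353 to 368 CPM. They lay below them for CDK1 at 74.8 to 76.4 CPM, AURKB at 93.0 to 98.4 CPM and TOP2A at 428 to 466 CPM. The groups overlapped for CCNB2, AURKA, CDC20, BIRC5 and MKI67, at 134 to 142, 129 to 138, 303 to 322, 137 to 140.4 and 356 to 390 CPM in siIQGAP3, and for CDC25B at 117 to 124 CPM. All 4 spindle checkpoint genes had positive values, with a median log2 fold change of 0.35. Without library 3 of each group 17 members were lower (40.9% of all genes) and 31 higher (39.7%), and against siControl library 3 alone 0 were called in either direction by edgeR (7.2% of all genes lower and 3.63% higher), with 0 at an unadjusted p under 0.05. In the fit of all 15 libraries 4 members had an unadjusted p under 0.05, well under the 43.9% of all genes, and DESeq2, limma-voom and limma-trend called the same 2 genes.

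Knockdown of IGF2BP1 and of SRF gave no call on any of the 55 members by edgeR, where 1.62% and 1.57% of all genes were called in either direction. At an unadjusted p under 0.05 there were 2 members in siIGF2BP1 (MKI67 and CKAP2L) and 3 in siSRF (these and CDCA2), fewer than the 15.1% and 14.5% of all genes would give, and DESeq2, limma-voom and limma-trend called 0 in each. Negative values were found in 44 members in siIGF2BP1 (median log2 fold change -0.26) and 47 in siSRF (-0.25), against a median of 0.01 over all genes in both. This direction rested on library 3. Without siIGF2BP1 library 3 the median was -0.06 (31 negative) and without siSRF library 3 it was 0.07 (21 negative), and without library 3 of each group they were 0.03 (24 negative) and 0.13 (14 negative). All libraries lay below the controls in 8 members in siIGF2BP1 (9.57% of all genes) and 5 in siSRF (7.2%), and above them in 0 and 0 (7.74% and 6.95%). With library totals the counts below were 5 (7.31%) and 1 (5.52%).

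MKI67 was at 228, 233 and 150 CPM in siIGF2BP1 and at 244, 272 and 115 CPM in siSRF, below every control in both. The log2 fold changes were -0.69 ± 0.28 (adjusted p = 0.265) and -0.64 ± 0.28 (adjusted p = 0.31), and -0.34 and -0.18 without library 3 of each group. CKAP2L, a spindle protein, was at 33.0, 34.1 and 66.0 CPM in siControl, at 32.7, 29.2 and 25.7 in siIGF2BP1 and at 30.3, 32.7 and 19.2 in siSRF, with log2 fold changes of -0.60 ± 0.26 (adjusted p = 0.304) and -0.69 ± 0.26 (adjusted p = 0.241). Without library 3 of each group the differences were -0.16 and -0.14.

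The core genes show the split between libraries 1 and 2 and library 3 in these groups. CCNB1 was at 211 and 198 CPM in siIGF2BP1 libraries 1 and 2 and at 233 and 223 CPM in those of siSRF, all above the highest control of 174, but at 122 and 69.3 CPM in library 3 of the groups. AURKB was at 151, 156 and 66.5 CPM in siIGF2BP1 and at 162, 168 and 35.5 CPM in siSRF, around controls of 112 to 143. The same split held in siIGF2BP1 and siSRF for BIRC5, at 168 to 171 and 191 to 192 CPM against 68.8 and 48.9 CPM in library 3 of the groups. PLK1, CDC20, AURKA, CCNB2, CDK1, CDC25B, CENPF and TOP2A were each lowest in library 3 of both groups, with siSRF library 3 at 85.7, 114, 31.2, 43.8, 53.9, 86.8, 153 and 250 CPM. Without library 3 of each group siIGF2BP1 had 8 members lower (27.7% of all genes) and 11 higher (21.2%), and siSRF 4 lower (30.4%) and 22 higher (23.8%). With siControl library 3 as the only control, again with the spread of the other groups, 9 were lower in siIGF2BP1 (19.1% of all genes) and 8 in siSRF (15.1%), shares near those backgrounds.

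**Figure D5:**
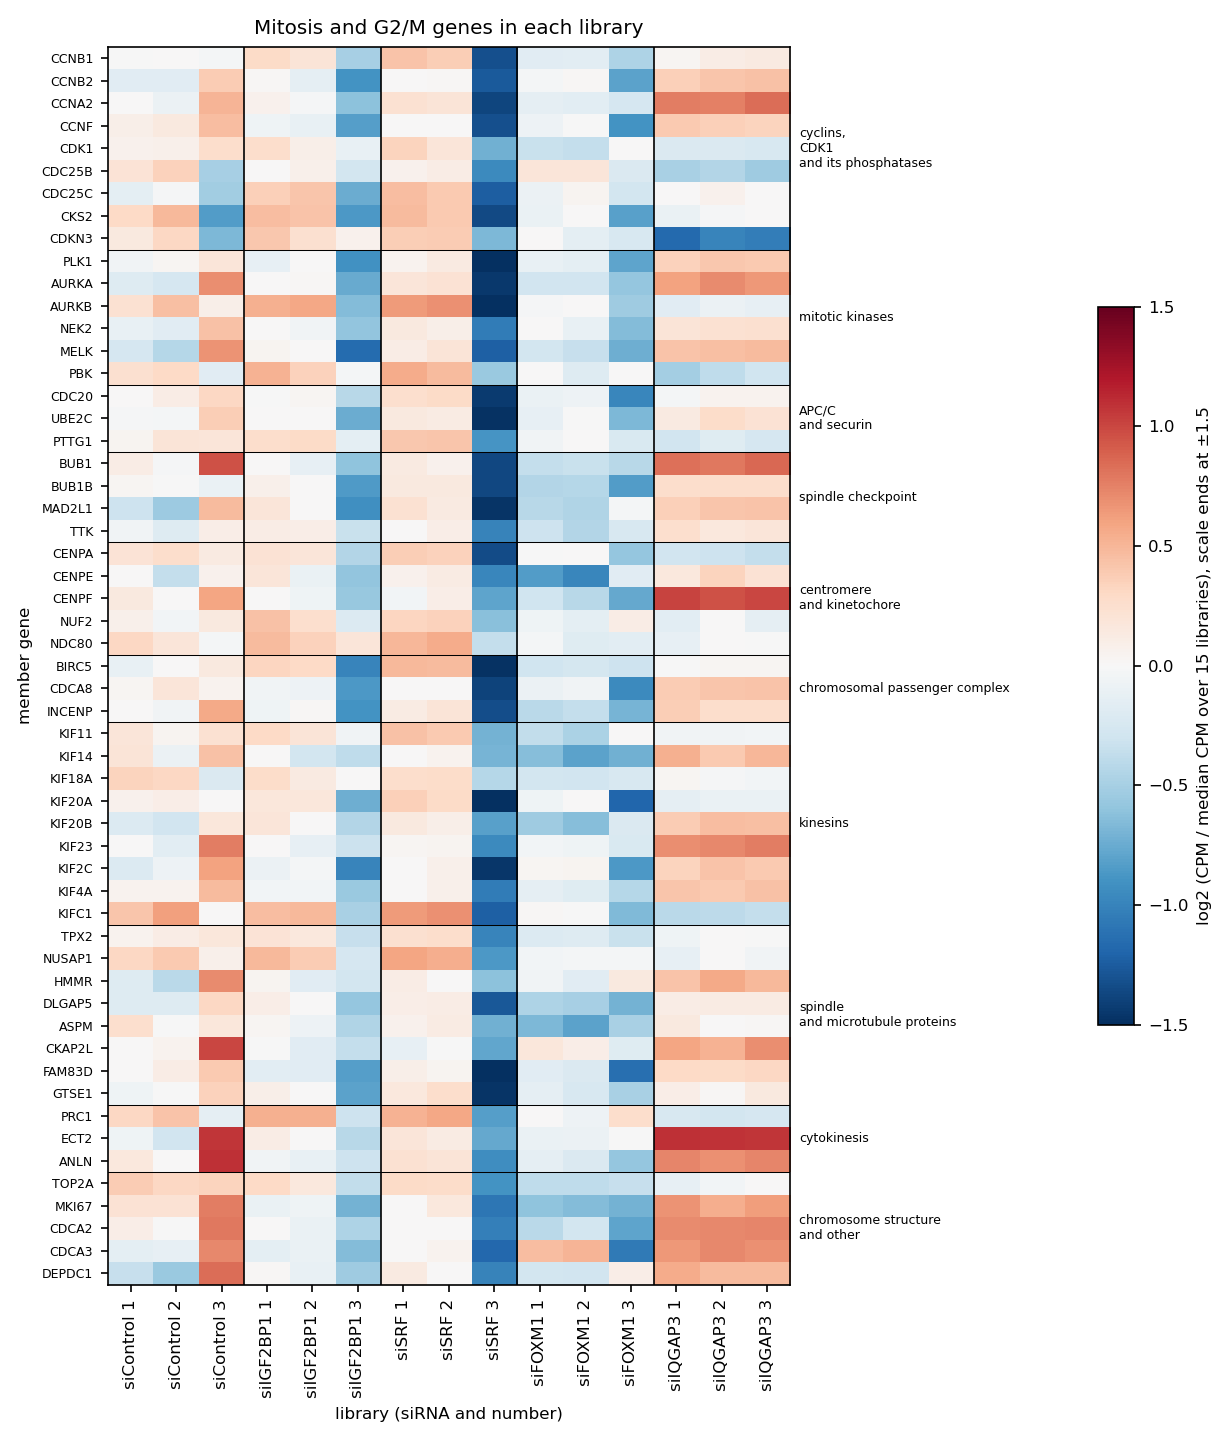
Log2 ratio of each gene's CPM to its median over the 15 libraries, with genes in rows by role and libraries in columns by siRNA; the colour scale ends at ±1.5. siSRF library 3 is the lowest for 51 of the 55 genes, siControl library 3 the highest for 20, and the siIQGAP3 libraries look alike.

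Set directly against each other, siFOXM1 and siIQGAP3 differed in 14 members in the fit of all 15 libraries. On the first principal component siIQGAP3 scored 157, beside siControl library 3 at 131, and siFOXM1 -24.2 to -40.4. The siRNA and this split of libraries cannot be told apart in this comparison. By edgeR 13 members were lower in siFOXM1 (13.9% of all genes) and 1 higher (22.9%), and 21 had an unadjusted p under 0.05 (47.5% of all genes). The 5 largest decreases were CENPF, MKI67, BUB1, CDCA2 and KIF14. CENPF was at 156 to 215 CPM in siFOXM1 and 513 to 535 in siIQGAP3, a log2 difference of -1.47 ± 0.24 (adjusted p = 0.00122). MKI67 was at 149 to 161 CPM against 356 to 390 (-1.27 ± 0.28, adjusted p = 0.00484). BUB1 was at 80.2 to 84.8 CPM against 186 to 195 (-1.20 ± 0.34, adjusted p = 0.017). CDCA2, which brings a phosphatase to chromatin, was at 21.2 to 30.1 CPM against 59.6 to 60.8 (-1.20 ± 0.28, adjusted p = 0.00641). KIF14 was at 33.5 to 37.5 CPM against 76.4 to 84.5 (-1.19 ± 0.20, adjusted p = 0.00116). The other 8 lower genes were ECT2, AURKA, ANLN, CCNA2, KIF20B, CENPE, KIF23 and ASPM. CDKN3 was the 1 higher, at 41.1 to 48.4 CPM against 21.6 to 24.4 (0.94 ± 0.28, adjusted p = 0.0196). Leaving out any 1 library of these groups left 6 to 9 lower (1539 to 2213 of all genes). The CDKN3 call was lost without any 1 siIQGAP3 library or siFOXM1 library 1, and that of AURKA by limma-voom, limma-trend, library totals and no filter. Without library 3 of each group 39 were lower (36.7% of all genes) and 7 higher (39.3%). In the fit of these 2 groups alone 33 were lower (28% of all genes) and 4 higher (33.6%).

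Between siFOXM1 and the other knockdowns that lowered FOXM1 no member passed, with 0 against siIGF2BP1 (0.0107% of all genes) and 0 against siSRF (0.00533%) by edgeR. DESeq2, limma-voom and limma-trend also called 0 in both, and unadjusted p-values were under 0.05 for 3 members (KIF14, ASPM and NDC80; 4.84% of all genes) and 2 (KIF14 and ASPM; 4.02%). When library 3 of each group was left out, 37 were lower and 3 higher against siIGF2BP1 (25.5% and 27.9% of all genes), and 45 and 2 against siSRF (26.5% and 30%). KIF14 then differed by -0.55 and -0.72. Between siIGF2BP1 and siSRF 0 members were called by all 4 tools, where 0.00533% of all genes were by edgeR, and 0 had an unadjusted p under 0.05 (0.283% of all genes). The median log2 difference there was 0.02, with a largest value of 0.19, and both turned on library 3. Without siSRF library 3 the median was -0.30 with 55 negative, and without siIGF2BP1 library 3 it was 0.21 with 0 negative.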

How the data were processed

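Total RNA of 15 NTERA2 libraries was sequenced as paired reads on a DNBSEQ instrument, per the labels' protocols. STAR, SAMtools and featureCounts with GRCh37 are named in the submitters' processing notes, without versions, annotation or strand setting. The authors deposited raw counts per gene and a table of normalised signal, the counts scaled per library. Column names give the siRNA but no replicate, and library numbers here are names alone.

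Genes were kept by filterByExpr, scaled by TMM and tested with edgeR 4.0.16 (R 4.3.3) by the quasi-likelihood F test in 1 fit of 15 libraries with 10 residual degrees of freedom. P-values were Benjamini-Hochberg adjusted over all 18760 genes, with a threshold of 0.05. CPM use the TMM-scaled library size. Each knockdown was compared with siControl, siFOXM1 with each other knockdown, and siIGF2BP1 with siSRF. The script was tested on simulated data. Alternatives were DESeq2 1.42.0, limma-voom and limma-trend (limma 3.58.1, the latter on log2 of the normalised signal with a pseudocount of 1), other scalings and filters, other sample sets and each library left out. Principal components were taken on log2 CPM (prior count 2), and the chi-square left out genes summing to under 10 counts. The interval on motif shares covers counting error over members only.

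The members, roles and lists were chosen with earlier results of these data known. The named genes are 12 core genes (CCNB1, CDK1, CCNB2, CDC25B, PLK1, AURKA, AURKB, CENPF, CDC20, BIRC5, TOP2A and MKI67), called members (up to 10 decreases and 5 increases in a comparison with siControl, up to 5 each way between knockdowns) and the siRNA targets. Others are named by role or list, or were chosen after their values were seen (KIF14 and ASPM between knockdowns, CKAP2L, CDCA3, CENPE, BUB1, ANLN, COL3A1). By RefSeq names 27 members overlap another annotated gene and 14 have a pseudogene named after them, and without a stated strand setting their counts could be split differently.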

Additional observations from a re-analysis of the deposited data

How the results depend on the processing

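No paired analysis was possible because the columns carry no replicate numbers. Of 468 comparisons of the 28 named gene values with an alternative, 402 kept direction and call, 22 lost the call, 33 gained it and 11 changed sign; the cause was not tested. Without library 3 of each group, members were called lower and higher in 8 and 11 (siIGF2BP1), 4 and 22 (siSRF), 36 and 2 (siFOXM1) and 17 and 31 (siIQGAP3) against siControl, in 37 and 3 for siFOXM1 against siIGF2BP1, 45 and 2 against siSRF and 39 and 7 against siIQGAP3, and 2 were lower in siIGF2BP1 against siSRF. Those fits call 21.2% to 40.9% of all genes in each direction against siControl, and 25.5% to 39.3% for siFOXM1 against the other knockdowns. For siIGF2BP1 against siSRF 52 of 18655 genes were lower. With all siIQGAP3 libraries kept the member counts were 11 and 13, 4 and 23, 37 and 3, 18 and 31, 38 and 3, 46 and 2, 39 and 8, and 3. That fit called 4962 to 7848 of 18734 genes lower and 4128 to 7652 higher, and 70 lower in siIGF2BP1 against siSRF. With siControl library 3 alone as control, 9, 8, 10 and 0 were lower in siIGF2BP1, siSRF, siFOXM1 and siIQGAP3, and 0 higher in siIQGAP3. By DESeq2 3 were lower in siFOXM1, where 616 of all 18760 genes were. By limma-voom, library totals and no filter 0 were, where 167, 114 and 106 of all genes were lower. The fit of the 2 groups alone gave 0 lower in siFOXM1 (5 of 17735 genes). It gave 6 lower and 2 higher in siIQGAP3 (2180 and 1439 of 17524 genes). In siFOXM1 against siIQGAP3 it gave 33 lower and 4 higher (28% and 33.6% of all genes). Leaving out 1 library gave 0 to 1 lower in siFOXM1, where 48 to 821 of all genes were. It gave 0 to 3 lower and 0 to 7 higher in siIQGAP3 (2632 to 5712 and 887 to 4999 of all genes). The 7 came without siControl library 3, where 4999 of 18965 genes were higher. In siFOXM1 against siIQGAP3 it gave 6 to 9 lower and 0 to 1 higher (1539 to 2213 and 2997 to 4016 of all genes).

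CCNB2 in siFOXM1 changed sign without library 3 of each group, to 0.15 (0.15 with siIQGAP3 kept whole). CDC25B, near 0, changed sign by limma-voom (0.033), library totals (0.053), no filter (0.019), a filter of 1 CPM (0.0022), the 2 groups alone (0.013) and siControl library 3 alone (0.59), and ran from -0.22 to 0.18 with 1 library left out.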
